A study of Mus musculus with 5 samples.

Results

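PKM1 KI ES cells, a line of mouse embryonic stem (ES) cells labelled as having PKM1 knocked in, were compared with V6.5 ES cells, a wild-type ES line, in their microRNA (miRNA) content. The comparison was chosen by sample title and spot name: the arrays of these lines, 2 of the 5 arrays of the study, and the 1265 spots on each that stand for mouse miRNAs. That rule uses no measured value. Each line was hybridised to 1 single-colour array, so no difference between them has a replicate check, no test was possible, and every value describes these arrays and not the conditions. Both lines grew with LIF, leukaemia inhibitory factor, on which mouse ES cells depend to stay undifferentiated. The labels do not give the parent line of PKM1 KI ES, the allele, the number of clones or passages, or any feeder cells. The other 3 arrays held an embryoid body (EB), which is V6.5 kept without LIF in floating culture for 1 week, and the ES lines 2TS22c and ZHBTc4. Those lines are known as ES cells built for switching off Sox2 and Oct3/4 with a drug, and no drug is named for them here.

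PKM1 and PKM2 are forms of the glycolytic enzyme pyruvate kinase M, made from the Pkm gene by alternative splicing; PKM2 is the form typical of proliferating and pluripotent cells, and PKM1 is typical of muscle and brain. miRNAs are short RNAs that pair with messenger RNAs mainly through their seed, the stretch of bases 2 to 8, and lower the output of those messengers. In mouse ES cells the miR-290-295 cluster is the main source of miRNAs, whereas the miR-302 cluster, which also holds miR-367, is known from the epiblast after implantation and from primed pluripotent cells; members of both carry nearly the same seed. A miRNA array does not measure Pkm, so the knock-in label could not be checked on it.

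The mature sequences of the miRNAs on which the comparison turns are shown from 5′ to 3′ with the seed in capitals. They come from RefSeq on build GRCm38.p6, in which 1024 of the 1265 spots had an entry. The first are members of the miR-302 cluster, which lies on the plus strand of chromosome 3 within the span of Larp7; miR-302b-3p is at chr3:127545275-127545297, miR-302d-3p at chr3:127545665-127545687, miR-302c-3p at chr3:127545406-127545427 and miR-367-3p at chr3:127545779-127545800. The entry of miR-302c-3p begins 1 base further into the stretch it shares with the others, which shifts its seed.
miR-302b-3p: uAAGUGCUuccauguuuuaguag
miR-302d-3p: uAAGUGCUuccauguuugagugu
miR-302c-3p: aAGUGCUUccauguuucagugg
miR-367-3p: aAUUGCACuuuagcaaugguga
The hairpin that miR-302b is cut from, at chr3:127545228-127545301, is shown with both mature arms in capitals, because the array has separate spots for the arms.
Mir302b: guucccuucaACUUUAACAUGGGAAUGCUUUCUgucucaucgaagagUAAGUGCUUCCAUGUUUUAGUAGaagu

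The next set shows miRNAs with the same seeds from other loci. miR-294-3p, miR-295-3p and miR-291a-3p of the miR-290-295 cluster lie on the plus strand of chromosome 7, at chr7:3220691-3220712, chr7:3220815-3220837 and chr7:3218968-3218989, within the span of Nlrp12. miR-92a-3p of the miR-17-92 cluster, at chr14:115044476-115044496 on the plus strand, carries the seed of miR-367-3p. miR-17-5p, from the same cluster at chr14:115043684-115043706, carries a seed shifted by 1 base from that of miR-302b-3p.
miR-294-3p: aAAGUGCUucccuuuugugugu
miR-295-3p: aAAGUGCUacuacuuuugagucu
miR-291a-3p: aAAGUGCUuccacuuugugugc
miR-92a-3p: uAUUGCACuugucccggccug
miR-17-5p: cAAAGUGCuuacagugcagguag
miR-302b-3p and miR-302d-3p are identical at 20 of 23 bases counted from the 5′ end. miR-302b-3p and miR-294-3p share 14 of 22 bases, with 7 of the 14 bases after the seed the same.

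The last set holds miRNAs that were lower on the PKM1 KI ES array. miR-706 lies on the minus strand at chr6:120034290-120034311, within the span of Wnk1. miR-125b-5p and miR-199a-3p have several genes each, of which chr9:41581940-41581961 and chr1:162217883-162217904, both on the plus strand, are given here. let-7a-5p is at chr13:48538239-48538260 on the minus strand. miR-466k, at chr3:85467396-85467418, and miR-466j, at chr10:60960802-60960824, both on the plus strand, show GU-rich repeats found in part of the miR-466, miR-467, miR-669 and miR-297 families. Other members with an entry, miR-466i-3p, miR-467f and miR-467g, carry CA-rich repeats instead and were lower too.
miR-706: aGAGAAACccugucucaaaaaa
miR-125b-5p: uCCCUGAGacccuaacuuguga
miR-199a-3p: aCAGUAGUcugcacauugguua
let-7a-5p: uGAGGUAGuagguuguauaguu
miR-466k: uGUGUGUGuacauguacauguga
miR-466j: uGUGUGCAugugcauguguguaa

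The arrays of PKM1 KI ES and V6.5 ES lay on the same chip and were scanned at the same detector gain of 47. Of the 1265 spots, 763 were detected on PKM1 KI ES and 754 on V6.5 ES, where detected means a raw intensity more than 2 SD over the average blank spot (limits of 59.5 on PKM1 KI ES and 59.9 on V6.5 ES). Detection was shared by 643 spots, and 874 were detected on at least 1 of the arrays. A stricter limit from the negative control spots, at 73.7 on PKM1 KI ES and 72.2 on V6.5 ES, left 418 spots above it on both. Intensities were normalised over all 5 arrays and put on a log2 scale, and every miRNA difference below is PKM1 KI ES minus V6.5 ES on that scale. The normalisation gives all 5 arrays the same distribution of values. Fewer spots were detected on 2TS22c ES (507) and ZHBTc4 ES (520) than on the EB (750), and ZHBTc4 ES alone lay on another chip. Rankings of the 5 arrays and summed signals below are to be read with that in mind. The 874 differences had a median of 0.02 and an SD of 0.23, and 96.2% of them were within 0.5 of 0. Repeat spots of controls show the error of spot and scan, not of the culture. Their differences are log2 values after background correction, without normalisation between the arrays. The log2 differences of the 8 spots of each bright spike control had SDs of 0.09 and 0.12. At raw intensities near the detection limit most repeats spread more: the 40 QC-Probe spots (medians of 54.5 on PKM1 KI ES and 56 on V6.5 ES) had an SD of 0.39 and differences from -1.39 to 0.53, and the repeated S-Probe spots had SDs between 0.06 and 0.31. The repeats of the 3 negative controls had SDs of 0.12, 0.13 and 0.17. Among miRNAs detected on both arrays the spread rose with signal. The SD of the difference was 0.12 for the 216 dimmest, 0.19 for the 212 in the middle and 0.35 for the 215 brightest. Those SDs hold differences between the cultures as well as error. Differences of dim miRNAs below are to be read against the spread of the dim repeat spots, and bright miRNAs are not free of spread.

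Few miRNAs differed by much. At least 2-fold higher on PKM1 KI ES were 2 of 874 detected miRNAs, or 0.229%, and 1, or 0.114%, was at least 2-fold lower. At a limit of 1.5-fold, 7 were higher (0.801%) and 13 lower (1.49%). Of any size, 451 lay above V6.5 ES (51.6%) and 403 below (46.1%). All 20 miRNAs past 1.5-fold were detected on both arrays. Of the 7 that were higher, 4 were miR-302 members, and of the 13 that were lower, 8 belonged to the miR-466, miR-467, miR-669 and miR-297 families. Just inside the 2-fold limit was miR-302d-3p at 2.13-fold, and just outside it was miR-302b-3p at 1.96-fold; on the lower side miR-706 at 2.81-fold was followed by miR-297a-5p at 1.74-fold. At 1.5-fold the last inside were miR-6410 and miR-5097, both at 1.503-fold, and the first outside on the lower side was miR-669p-3p at 1.48-fold.

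**Figure D1:**
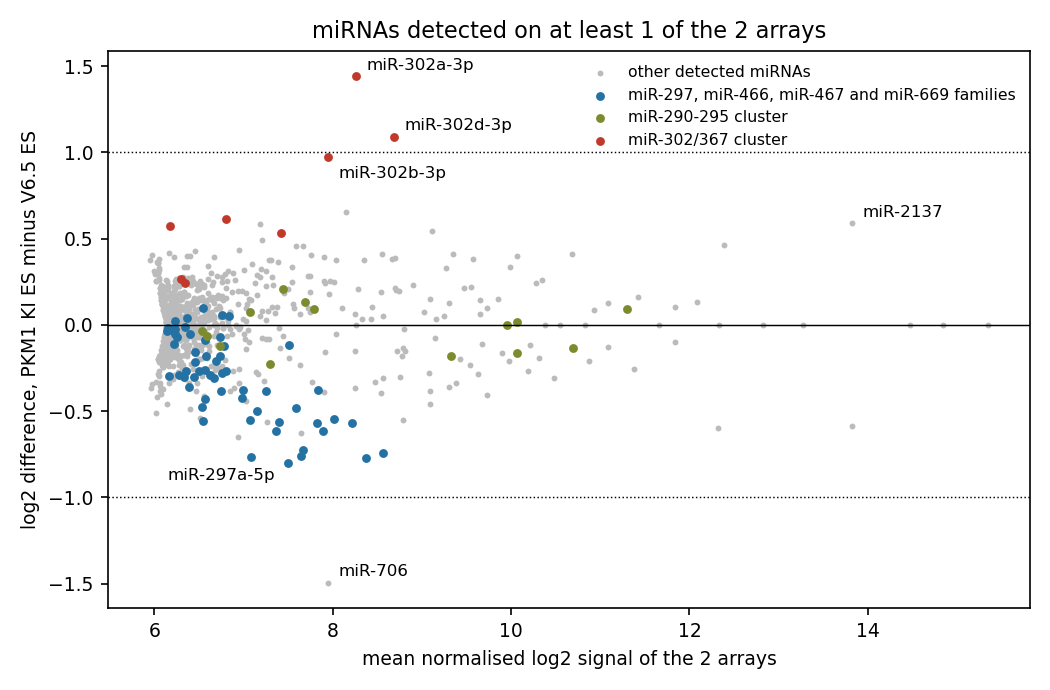
Log2 difference PKM1 KI ES minus V6.5 ES (y axis) against the mean normalised log2 signal of both arrays (x axis) for the 874 miRNAs detected on at least 1 of them, 1 point per miRNA; dotted lines mark 2-fold. miR-302a-3p (1.44) and miR-302d-3p (1.09) lie above the upper line, miR-706 (-1.49) below the lower one, and the miR-466, miR-467, miR-669 and miR-297 points lie mostly below 0.

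The miR-302 cluster was higher on the PKM1 KI ES array. Of its 10 spots, 8 were detected, all 8 were above V6.5 ES, 4 by at least 1.5-fold, and their median log2 difference was 0.59 against 0.02 over all detected miRNAs. With the member detected on 1 array alone set to its bound, the median was 0.57. For the 5 members above the stricter limit on both arrays it was 0.97. Probes of members alike in sequence, such as miR-302b-3p and miR-302d-3p, may pick up each other's targets. That was not tested, so the members are not independent readings. The cluster had the highest median of the 36 groups of neighbouring miRNA genes with at least 3 detected members, genes being joined where they lie within 10000 bases of each other; the next, Mir344d-3 with Mir344e and Mir344h-1, had 0.17.

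miR-302a-3p, the member furthest apart, had a raw intensity of 690 on PKM1 KI ES, 228 on V6.5 ES, 122 on the EB, 49 on ZHBTc4 ES and 51 on 2TS22c ES. The last 2 values are below the detection limits of their arrays. After normalisation its log2 signal was 8.98 on PKM1 KI ES and 7.54 on V6.5 ES, a 2.72-fold difference. miR-302d-3p had raw intensities of 829 on PKM1 KI ES, 342 on V6.5 ES, 183 on the EB, 52 on ZHBTc4 ES and 60 on 2TS22c ES, and it was 2.13-fold higher (log2 signal 9.23 on PKM1 KI ES and 8.14 on V6.5 ES). miR-302b-3p had 465 on PKM1 KI ES, 218 on V6.5 ES, 106 on the EB, 62 on ZHBTc4 ES and 54 on 2TS22c ES, and was 1.96-fold higher. These miRNAs were thus brightest on PKM1 KI ES, next on V6.5 ES, then on the EB, and close to the detection limit on the other ES lines.

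After normalisation the first 3 arrays came in the same order for miR-302c-3p and miR-367-3p. miR-302c-3p had raw intensities of 145 on PKM1 KI ES and 86 on V6.5 ES, against 52 to 57 on the other arrays, a 1.53-fold difference. miR-367-3p, which sits at the end of the same transcript and has a different seed, had 231 on PKM1 KI ES, 160 on V6.5 ES and 71 on the EB, a 1.45-fold difference. The 5p arms were dim. miR-302a-5p had 80 on PKM1 KI ES and 61 on V6.5 ES, a log2 difference of 0.27, and miR-302c-5p had 83 on PKM1 KI ES and 64 on V6.5 ES, a difference of 0.24. miR-302d-5p was detected on PKM1 KI ES at 83 and not on V6.5 ES at 47, which gives at least 1.25-fold; here "at least" is the bright array's signal set against the lowest detected signal of the other. miR-302b-5p (57 on PKM1 KI ES and 58 on V6.5 ES) and miR-367-5p (57 on PKM1 KI ES and 46 on V6.5 ES) were detected on neither array. The arms of a hairpin thus lay on the same side of V6.5 ES where both were seen, with the 3p arm further apart than the 5p arm for miR-302a, miR-302c and miR-302d.

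PKM1 KI ES was the highest of the 5 arrays for 7 of the 8 detected members, against 21.2% of all detected miRNAs; the exception was miR-302d-5p, with a log2 signal of 6.46 on PKM1 KI ES and 6.53 on 2TS22c ES. With median or spike control scaling in place of quantile normalisation it was the highest for 5 of 8. Of all detected miRNAs, 12.5% were highest on PKM1 KI ES with median scaling and 1.1% with spike control scaling. The median difference was between 0.46 and 1.34 under 8 other ways of processing, positive under all of them. A bulk array cannot tell apart more cells that hold a miRNA and more of it per cell.

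**Figure D2:**
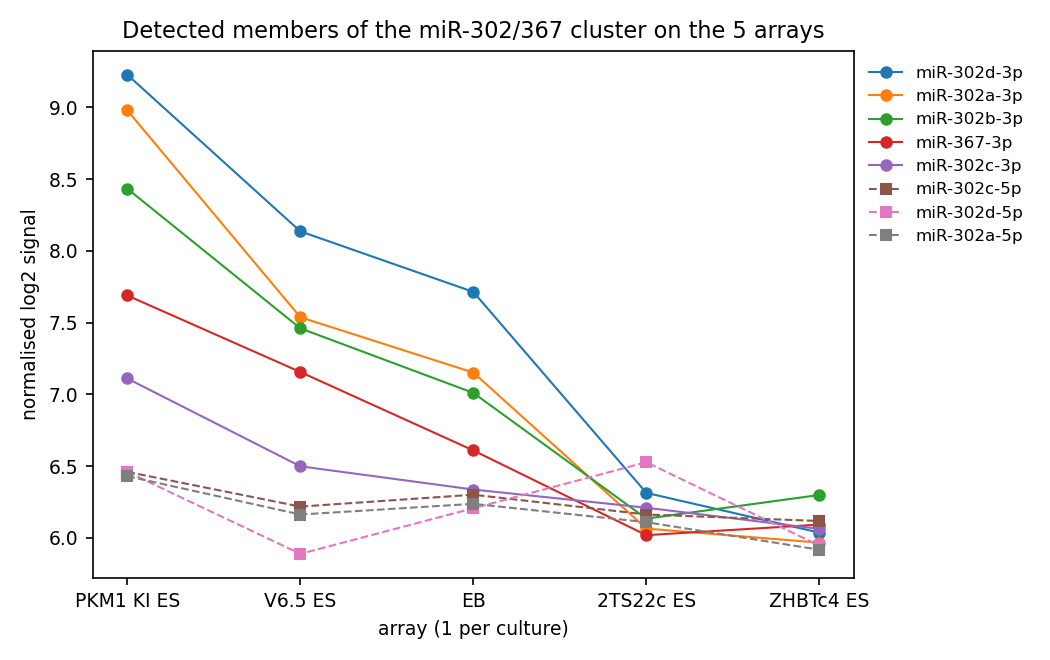
Normalised log2 signal (y axis) of the 8 detected members of the miR-302 cluster on the 5 arrays (x axis), with 1 value per array; circles are 3p arms, squares 5p arms, and lines only join the values of 1 miRNA. The 3p arms have their highest values on PKM1 KI ES, up to 9.23 for miR-302d-3p, and the 5p arms lie near the detection limit on every array.

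The miR-290-295 cluster, by contrast, had a median difference of -0.02. All 14 of its spots were detected on both arrays, 6 were above V6.5 ES, 7 below and 1 level with it, and the differences lay between -0.22 and 0.21. miR-294-3p, the brightest of the cluster's spots, had raw intensities of 3402 on PKM1 KI ES and 2745 on V6.5 ES, but a normalised difference of only 0.09. miR-295-3p had 2122 on PKM1 KI ES and 2114 on V6.5 ES (-0.13), and miR-291a-3p had 1284 on PKM1 KI ES and 1404 on V6.5 ES (-0.16). The cluster is the ES cell marker of this comparison, and it was detected on both arrays. With local background correction single members lay much further apart, at 1.62 for miR-293-3p and 1.61 for miR-292-3p (main processing 0.00 and 0.02), 0.61 for miR-294-3p and -0.63 for miR-291a-3p, and the median was -0.17. The brightness around the spot of miR-293-3p was 270 on PKM1 KI ES and 1039 on V6.5 ES. The miR-290-295 cluster was brighter on ZHBTc4 ES and 2TS22c ES, the arrays with fewer detected spots. Its summed normalised signal was 8381 on PKM1 KI ES, 8532 on V6.5 ES, 6125 on the EB, 22422 on ZHBTc4 ES and 23830 on 2TS22c ES. The summed signal of the miR-302 cluster ran the other way among the ES lines, at 1694 on PKM1 KI ES, 709 on V6.5 ES, 521 on the EB, 173 on ZHBTc4 ES and 219 on 2TS22c ES.

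**Figure D3:**
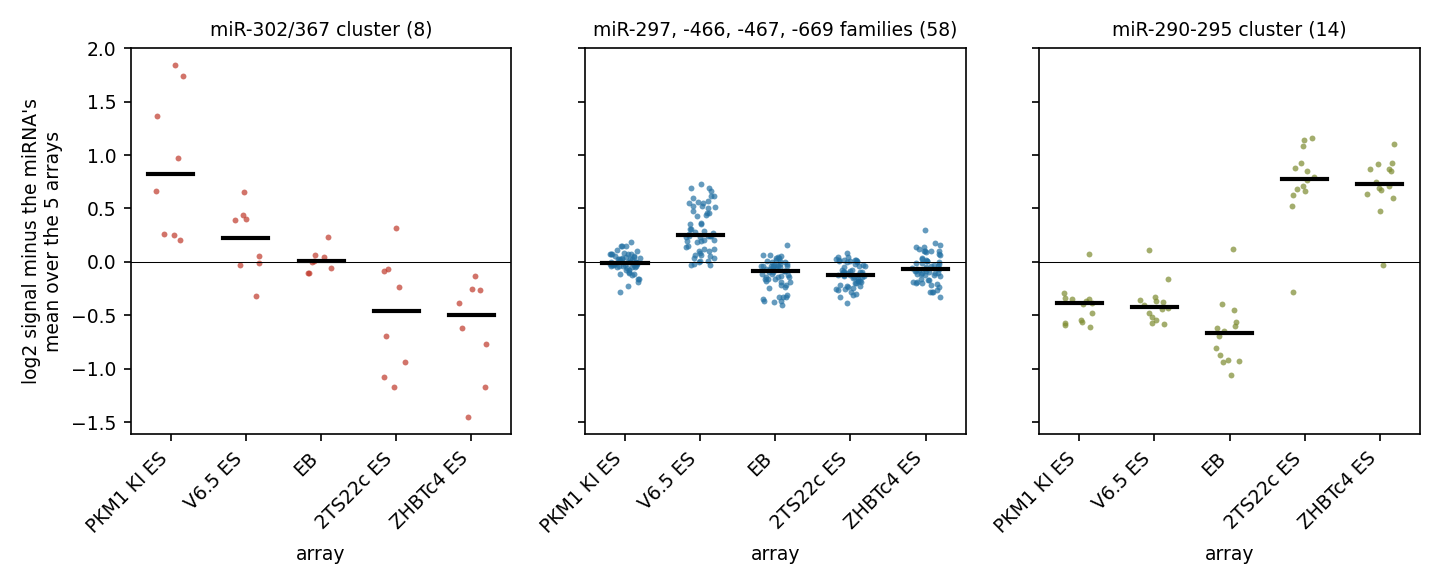
Log2 signal of each detected member minus its own mean over the 5 arrays (y axis), for 3 groups of miRNAs on the 5 arrays (x axis); points are miRNAs, and the black bar is their median. The miR-302 members are highest on PKM1 KI ES, the miR-466, miR-467, miR-669 and miR-297 members on V6.5 ES, and the miR-290-295 members on 2TS22c ES and ZHBTc4 ES.

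Grouping by seed set the cluster against miRNAs of other loci with the same seed. The seed AAGUGCU was carried by 5 detected miRNAs with a RefSeq entry: miR-302d-3p and miR-302b-3p differed by 1.09 and 0.97, while miR-294-3p, miR-291a-3p and miR-295-3p differed by 0.09, -0.16 and -0.13. The seed AUUGCAC of miR-367-3p (0.53) was shared with 5 others, miR-25-3p, miR-32-5p, miR-92a-3p, miR-92b-3p and miR-363-3p, whose differences lay between -0.20 and 0.21. In both seed groups the miR-302 members stood above those from other loci.

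Of 17 seed groups with at least 3 detected members, the lowest was AAAGUGC, the miR-17 family, which promotes proliferation and is known as an oncogenic miRNA family. Its 6 members all lay below V6.5 ES (median -0.31), and the median was between -0.34 and -0.14 under the other ways of processing. The members are alike in sequence: miR-17-5p is identical to miR-20a-5p at 21 of 23 bases and to miR-93-5p at 19 of 23. Their probes may pick up each other's targets, which was not tested, so the 6 are not independent readings. miR-20a-5p had a raw intensity of 785 on PKM1 KI ES and 920 on V6.5 ES, and miR-17-5p had 1172 on PKM1 KI ES and 1311 on V6.5 ES. miR-93-5p, from an intron of Mcm7, had 434 on PKM1 KI ES and 523 on V6.5 ES, and its neighbour miR-106b-5p had 221 on PKM1 KI ES and 295 on V6.5 ES. After normalisation all 6 were lowest on PKM1 KI ES among the 5 arrays. None reached 1.5-fold: the log2 differences lay between -0.40 and -0.16. With local background correction miR-106b-5p was at 0.57 and miR-93-5p at 0.06, above V6.5 ES, and 6 of the 26 detected spots of miR-17-92 and its paralogues were lowest on PKM1 KI ES, against 15 of 26 in the main processing. Of all 874 detected miRNAs, 140 were lowest on PKM1 KI ES with local background correction and 133 (15.2%) in the main processing. By position, the miR-17-92 cluster on chromosome 14 had 10 of 11 detected arms below V6.5 ES and a median of -0.21, led by miR-19b-3p (633 on PKM1 KI ES and 759 on V6.5 ES, -0.46).

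The let-7 seed, GAGGUAG, was the second lowest. let-7 accumulates as cells differentiate and is kept low in ES cells by Lin28. The 9 detected miRNAs with this seed all lay below V6.5 ES, and their median was -0.29. These miRNAs are alike in sequence too, and the 9 are likewise not independent readings. Over the whole let-7 list, passenger arms included, 9 of 14 detected spots were below, 5 above, and the median was -0.13. With local background correction 4 of the 9 lay above V6.5 ES, namely let-7i-5p (0.38), let-7f-5p (0.32), let-7e-5p (0.09) and let-7b-5p (0.02). let-7a-5p had a raw intensity of 74 on PKM1 KI ES and 109 on V6.5 ES, let-7d-5p 68 on PKM1 KI ES and 100 on V6.5 ES, and let-7c-5p 65 on PKM1 KI ES and 91 on V6.5 ES. let-7g-5p was detected on V6.5 ES at 74 and not on PKM1 KI ES at 56. These spots lay close to the detection limit, and under the stricter limit only 3 spots of the whole list were detected on both arrays. The median ran between -0.90 and -0.03 under the other ways of processing. The third lowest seed, AGCACCA of miR-29, common in fibroblasts and other differentiated cells, had 3 of 3 members below V6.5 ES and a median of -0.27, which was 0.09 with local background correction. The highest seed groups were GUCAGGC (miR-344, 0.10), AAGUGCU (0.09) and CCCUGAG (0.09). In CCCUGAG both miR-125a-5p and miR-125b-5p were lower, and its other 3 members were higher. Its median ran from -0.15 to 0.13 under the other ways of processing. That of AAGUGCU, whose members were split as given above, ran from 0.05 to 0.61, and that of GUCAGGC from 0.07 to 0.26.

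The miR-466, miR-467, miR-669 and miR-297 families, most of which are processed from an intron of the Polycomb gene Sfmbt2, formed the largest group below V6.5 ES. Of 71 spots 58 were detected, 53 of these were lower on PKM1 KI ES and 5 higher, and the median was -0.29, against 0.02 over all detected miRNAs. Set to their bounds where 1 array alone detected them, the members had a median of -0.28. All 3 detected miR-297 spots were lower (median -0.55), as were 21 of 24 spots of miR-466 (-0.33), 13 of 13 of miR-467 (-0.27) and 17 of 19 of miR-669 (-0.29); a spot that joins miR-466 and miR-669 names counts in both. Both arms took part, with 26 of 27 5p spots and 20 of 23 3p spots lower. The 7 members with a RefSeq entry lie on 6 chromosomes, and all 7 were lower with a median of -0.26; the other 51 had 46 lower and a median of -0.30. Several spots stand for more than 1 of these miRNAs, and probes of related sequences may pick up each other's targets, which was not tested, so values of single members are uncertain and their number does not count independent readings.

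miR-297a-5p was the furthest apart of the group. Its raw intensity was 144 on PKM1 KI ES, 286 on V6.5 ES, 106 on the EB, 92 on ZHBTc4 ES and 80 on 2TS22c ES, a 1.74-fold lower normalised signal on PKM1 KI ES. The spot shared by miR-669a-3p/miR-669o-3p had 310 on PKM1 KI ES, 532 on V6.5 ES, 189 on the EB, 179 on ZHBTc4 ES and 154 on 2TS22c ES (1.71-fold lower). miR-669b-5p had 105 on PKM1 KI ES, 218 on V6.5 ES, 88 on the EB, 103 on ZHBTc4 ES and 77 on 2TS22c ES (1.70-fold lower). V6.5 ES stood above the other 4 arrays in each of these. In raw intensity, which is not on a common scale across the arrays, PKM1 KI ES was the next, between V6.5 ES and the rest. After normalisation PKM1 KI ES was the lowest of all the arrays for miR-669b-5p. On that scale miR-669a-3p/miR-669o-3p had a log2 signal of 7.99 on PKM1 KI ES, 8.76 on V6.5 ES and 7.77 to 8.07 on the EB, ZHBTc4 ES and 2TS22c ES. miR-467a-3p (167 on PKM1 KI ES and 315 on V6.5 ES), miR-669f-3p (364 on PKM1 KI ES and 588 on V6.5 ES) and miR-669f-5p (170 on PKM1 KI ES and 315 on V6.5 ES) were 1.65-fold to 1.69-fold lower. miR-466j, with the sequence shown above, had 145 on PKM1 KI ES and 251 on V6.5 ES (-0.56), and miR-466k had 74 on PKM1 KI ES and 111 on V6.5 ES (-0.43). The members above V6.5 ES differed by 0.10 at most, the value of miR-669c-3p.

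Over the group, V6.5 ES was the highest of the 5 arrays for 46 of the 58 detected members (79.3%), against 18.4% of all detected miRNAs. PKM1 KI ES was the lowest for 6 (10.3%), against 15.2% of all. The count for V6.5 ES was 34 (58.6%) with local background correction, against 20.1% of all detected miRNAs. It was 35 (60.3%, against 7.1% of all) with median scaling and 51 (87.9%, against 25.1%) in the authors' deposited table. With spike control scaling the count for V6.5 ES was 20 (34.5%, against 3.1% of all), and the EB was then the highest for 38. On that scale the EB was also the highest for 93.5% of all detected miRNAs. The summed normalised signal of the group was 3841 on PKM1 KI ES and 5931 on V6.5 ES, with 3236 on the EB, 3603 on ZHBTc4 ES and 3328 on 2TS22c ES.

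miR-706 was the miRNA with the lowest difference of all. Its raw intensity was 154 on PKM1 KI ES, 512 on V6.5 ES, 222 on the EB, 482 on ZHBTc4 ES and 401 on 2TS22c ES. In raw intensity PKM1 KI ES was the lowest array and the EB, scanned at a lower gain, the next. PKM1 KI ES was the lowest after normalisation too, and its normalised signal was 2.81-fold lower than on V6.5 ES (log2 signal 7.20 on PKM1 KI ES and 8.69 on V6.5 ES). The log2 difference of -1.49 lay between -2.27 and -1.31 under the other ways of processing.

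The miRNAs of differentiated and mesenchymal cells that passed 1.5-fold were lower. miR-199a-3p/miR-199b-3p, known from mesenchyme and fibroblasts, had a raw intensity of 96 on PKM1 KI ES, 177 on V6.5 ES, 137 on the EB, 60 on ZHBTc4 ES and 43 on 2TS22c ES, 1.57-fold lower on PKM1 KI ES than on V6.5 ES. miR-125b-5p, a miRNA that increases on differentiation, had 175 on PKM1 KI ES, 303 on V6.5 ES, 254 on the EB, and 61 on both 2TS22c ES and ZHBTc4 ES, 1.54-fold lower. For both, PKM1 KI ES lay between V6.5 ES with the EB on one side and 2TS22c ES with ZHBTc4 ES on the other.

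The list of mesenchymal and fibroblast miRNAs, which are also the markers of feeder cells, had 15 of 21 spots detected, 11 below V6.5 ES and 4 above, and a median of -0.22 (-0.11 with bounds, 0.01 with local background correction). miR-214-3p, from the same transcript as a copy of miR-199a, had 137 on PKM1 KI ES and 185 on V6.5 ES (-0.29), and miR-143-3p had 70 on PKM1 KI ES and 88 on V6.5 ES (-0.23). miR-21a-5p, abundant in fibroblasts, had 317 on PKM1 KI ES and 316 on V6.5 ES (-0.05), and miR-145a-5p had 70 on both arrays. The summed normalised signal of the list was 864 on PKM1 KI ES and 1036 on V6.5 ES, with 972 on the EB, 681 on ZHBTc4 ES and 751 on 2TS22c ES. Whether feeder or differentiated cells had a part in the lower values was not tested. The miR-125 and miR-99/100 families as a list had 6 of 7 detected spots below V6.5 ES and a median of -0.21, negative under all 8 other ways of processing; miR-125a-5p had 99 on PKM1 KI ES and 122 on V6.5 ES, and miR-99a-5p and miR-100-5p were detected on neither array.

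The remaining miRNAs past 1.5-fold are known mainly by their names. miR-1934-3p had a raw intensity of 471 on PKM1 KI ES, 272 on V6.5 ES, 393 on the EB, 92 on ZHBTc4 ES and 109 on 2TS22c ES (1.57-fold higher). miR-6410 had 191 on PKM1 KI ES and 123 on V6.5 ES, and the value on PKM1 KI ES was the highest of the 5 arrays. miR-2137 had 19279 on PKM1 KI ES and 12793 on V6.5 ES (1.503-fold higher). The sign of miR-2137 turned with local background correction, to -0.32; the brightness around its spot was 12457 on PKM1 KI ES and 5825 on V6.5 ES. On the lower side, miR-6412 had 5237 on PKM1 KI ES and 7432 on V6.5 ES (1.51-fold lower). miR-5097 had 17216 on PKM1 KI ES and 19122 on V6.5 ES (1.503-fold lower, and as little as -0.09 on the log2 scale in other processing). It lies outside the rule for named miRNAs and is given to complete the count. Its normalised difference of -0.58803 mirrors that of miR-2137, 0.58803. Quantile normalisation assigns values by rank, and such a mirror arises where 2 spots exchange ranks. The spots miR-466m-5p/miR-669m-5p and miR-467d-3p, both 1.53-fold lower, complete the 13; miR-467d-3p had a difference of 0.49 with local background correction.

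Of the miRNAs reported to affect Pkm or its splicing, 8 of 21 spots were detected, 3 above and 4 below V6.5 ES, and the differences lay between -0.49 and 0.26. miR-124-3p, the main neuronal miRNA, which is reported to target the splicing factor Ptbp1 and so the choice between PKM1 and PKM2, was the lowest. It had a raw intensity of 61 on PKM1 KI ES, 99 on V6.5 ES, 152 on the EB, 107 on ZHBTc4 ES and 99 on 2TS22c ES, so PKM1 KI ES was the lowest of the 5 arrays, just above its detection limit. miR-326-5p, the arm opposite the one reported to target PKM2, had 2995 on PKM1 KI ES and 2322 on V6.5 ES (0.08), and miR-326-3p had 61 on PKM1 KI ES and 73 on V6.5 ES (-0.19). miR-369-5p had 63 on PKM1 KI ES and, below the limit, 49 on V6.5 ES, and miR-369-3p had 57 on PKM1 KI ES, below the limit, and 72 on V6.5 ES, so the arms of miR-369, which is reported to stabilise a splicing factor of Pkm, differed in opposite directions near the limit. miR-133b-3p had 81 on both arrays, and both arms of miR-122 and of miR-137 were detected on neither.

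Among miRNAs reported to act on glycolysis or glutamine use, 10 of 14 detected spots were below V6.5 ES and 4 above, with a median of -0.19 (-0.06 with bounds). The list shares miR-199a and miR-143 with the mesenchymal one. miR-34a-5p, a p53 target, had 141 on PKM1 KI ES and 206 on V6.5 ES (-0.32), and miR-210-3p, the miRNA of hypoxia, had 78 on PKM1 KI ES and 95 on V6.5 ES (-0.20). miR-23a-3p had 224 on PKM1 KI ES and 225 on V6.5 ES.

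The medians of the other lists lay between -0.19 and 0.16. miRNAs reported to repress Oct4, Sox2 or Nanog had 3 of 7 detected spots above and 4 below V6.5 ES (median -0.01). The Dlk1-Dio3 cluster, an imprinted locus whose silencing marks some pluripotent lines, had 87 detected spots, 56 above and 31 below, with a median of 0.05, and that of the miR-200 family of epithelial cells was 0.06 over 9. In the cluster of miR-503 and miR-322, 6 of 8 detected spots were above V6.5 ES with a median of 0.16, led by miR-450a-2-3p (94 on PKM1 KI ES and 63 on V6.5 ES, 0.40), but 0.08 with bounds. miR-221 and miR-222 had 3 of 3 below, with a median of -0.19. The lists of neural tissue (0.02 over 19 spots), blood and endothelium (-0.01 over 8), liver, gut and pancreas (-0.07 over 7) and heart and skeletal muscle (0.13 over 4) lay nearer to 0, apart from the 4 spots of muscle. The Hox cluster miRNAs (0.05), the miR-182, miR-183 and miR-96 cluster (-0.05), the miR-34 and miR-449 family (-0.10), and the family of miR-195, miR-497, miR-15 and miR-16 (-0.15) followed, and the miR-130 and miR-301 family had 3 of 6 detected spots above and 2 below.

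**Figure D4:**
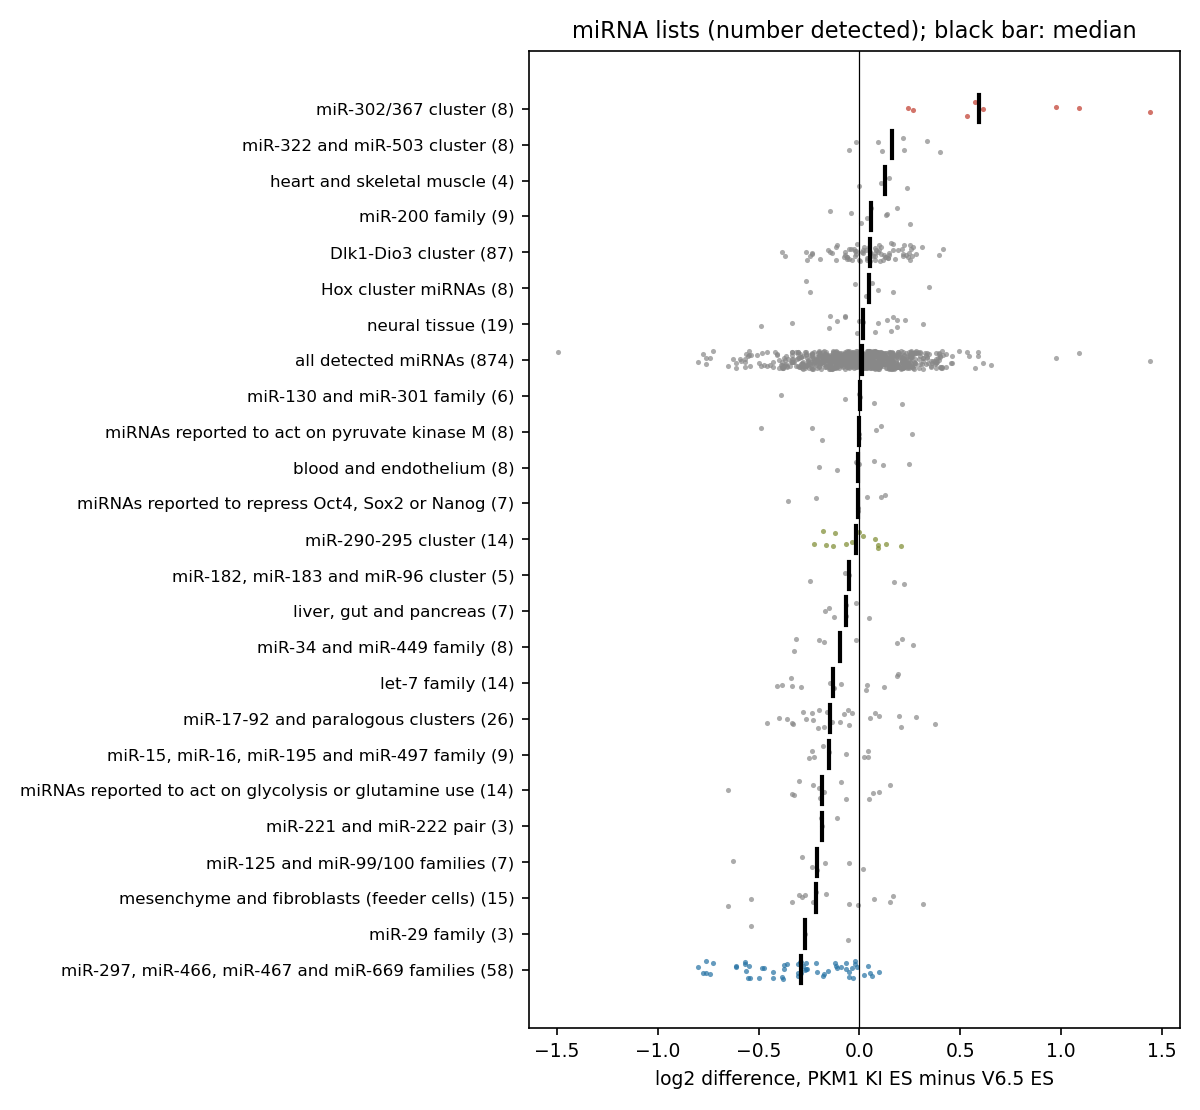
Log2 differences PKM1 KI ES minus V6.5 ES (x axis) of the detected members of each miRNA list (rows, with the number detected); points are miRNAs and black bars medians. The miR-302 cluster (0.59) has the highest median and the miR-466, miR-467, miR-669 and miR-297 families (-0.29) the lowest, and the 874 detected miRNAs centre on 0.02.

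**Figure D5:**
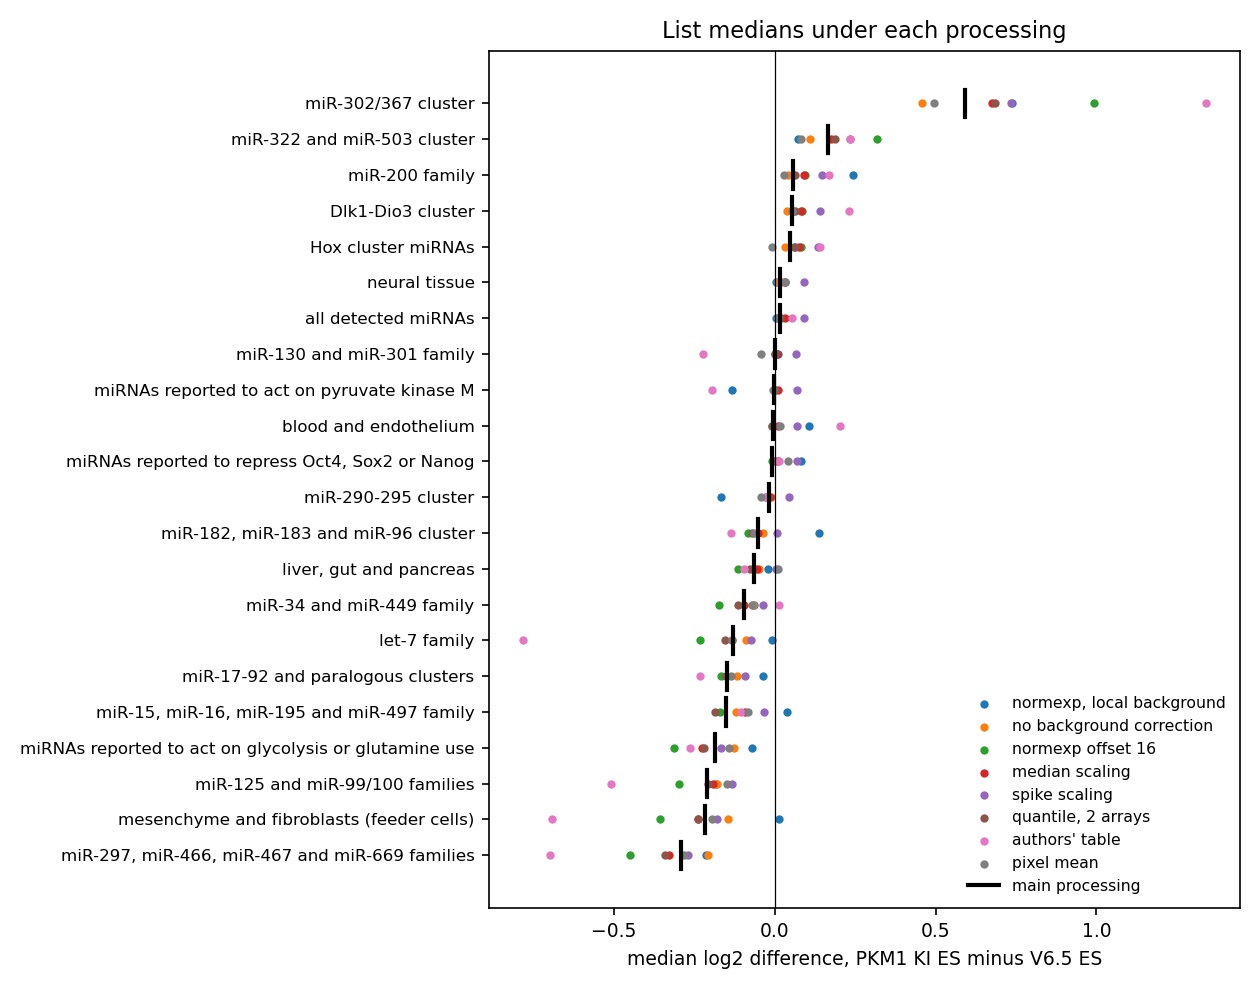
Median log2 difference PKM1 KI ES minus V6.5 ES (x axis) of lists with at least 5 detected members (rows) in the main processing (black bar) and in 8 others (coloured points). The medians of the miR-302 cluster stay between 0.46 and 1.34 and those of the miR-466, miR-467, miR-669 and miR-297 families between -0.70 and -0.21, while several of the small medians cross 0.

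Some miRNAs were detected on 1 of the arrays only, all of them dim. The brightest on PKM1 KI ES alone, after miR-302d-5p, were miR-494-5p (79 on PKM1 KI ES and 53 on V6.5 ES, at least 1.21-fold), miR-412-3p (76 on PKM1 KI ES and 50 on V6.5 ES, at least 1.17-fold), miR-34b-3p and miR-6347. Detected on V6.5 ES alone were miR-467g (59 on PKM1 KI ES and 79 on V6.5 ES, at least 1.21-fold lower on PKM1 KI ES), miR-330-3p (59 on PKM1 KI ES and 77 on V6.5 ES, at least 1.20-fold lower), miR-694 (48 on PKM1 KI ES and 75 on V6.5 ES, at least 1.18-fold lower), let-7g-5p and miR-3113-5p. In all, 120 spots were detected on PKM1 KI ES alone and 111 on V6.5 ES alone.

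The difference also moved with base composition. Across the 694 detected miRNAs with a RefSeq sequence, the median difference was -0.05 for the 74 with under 40% G and C, 0.01 for the 434 with 40 to 60%, and 0.08 for the 186 with more than 60%; Spearman's rho between the difference and the share of G and C was 0.25. With local background correction rho was 0.04, and under the remaining ways of processing it was between 0.21 and 0.29. For the 316 above the negative control limit on both arrays, rho was 0.31 in the main processing and 0.02 with local background correction. All these points come from the same arrays, and the part of base composition in any group's difference was not tested. miR-302b-3p has 34.8% and miR-302d-3p 39.1% G and C, and both were higher on PKM1 KI ES. let-7a-5p and miR-706, both at 36.4%, were lower. So were the 7 detected members of the miR-466, miR-467, miR-669 and miR-297 families with a sequence, at 23.8% to 43.5%. The other 51 detected members of those families had no sequence here. The motif UGUGUG, searched in the mature RNA, was in 18 of the 694 sequences (2.59%), with 12 of them below V6.5 ES and a median of -0.12; outside the miR-466, miR-467, miR-669 and miR-297 families it was in 14, with 8 below and a median of -0.12. The complementary motif CACACA was in 9 (1.30%), with 3 below and a median of 0.19; outside those families it was in 6, none of them below, with a median of 0.23. Where both arms of a hairpin were detected on both arrays, 81 of 130 pairs (62.3%) differed in the same direction.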

How the data were processed

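Total RNA was labelled with Hy5, per the labels' protocols, and each culture was hybridised to 1 array. The deposited scanner files give, per the file headers, spot intensity (median over the pixels) without any background subtraction. From these, R 4.3.3 and limma 3.58.1 computed log2 values after normexp correction (offset 50, saddle method, every spot) and quantile normalization over the 1265 mouse miRNA spots of 5 arrays; Python 3.11.15 made the comparisons. The offset pulls differences of dim miRNAs towards 0. Spots that stand for several miRNAs (13) keep all names. The background correction and quantile normalization were tested on simulated data, with known changes of at least 2-fold in bright miRNAs. Smaller changes, and changes of dim miRNAs, were not simulated. Precision is limited by the number of arrays.

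The deposited data include a table of intensity values processed by the authors; how it was made is not given in the sources used here. It was an alternative only, as were local background, no background correction, an offset of 16, median, spike control and 2-array quantile scaling, other detection limits and, added after the data were seen, the pixel mean and the stricter limit on both arrays.

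The miRNAs named are the 12 furthest apart in each direction, the 5 brightest on 1 array only, list members past 1.5-fold, miR-369, both pluripotency clusters, and up to 4 members of the 3 highest and 3 lowest seed groups; others are examples of their list. The comparison, the 24 lists and this rule were chosen with earlier results of these data known. Probes of different miRNAs were not ranked by amount.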

Additional observations from a re-analysis of the deposited data

Results flagged for a closer look

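Besides the miRNA and named control spots, each array holds 22 single spots named S-Probe with a number, whose targets the files do not name, and no comparison above uses them. On both arrays 8 of them were brighter than the limit set by the negative control spots. The brightest, S-Probe1014, had a raw intensity of 6104 on PKM1 KI ES and 4079 on V6.5 ES, a log2 difference of 0.58. S-Probe1018 had 1687 on PKM1 KI ES and 1417 on V6.5 ES, a difference of 0.25. Both differences are log2 values after background correction, without normalisation between the arrays.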

How the results depend on the processing

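No paired analysis was possible because each line has 1 array. For the same reason no replicate could be left out. The pixel mean was an alternative chosen after the data had been seen. Counts of miRNAs past a fold depended on the processing. The 2 miRNAs at least 2-fold higher became 8 with local background, 4 with an offset of 16 or with the pixel mean, and 39 in the authors' deposited table; the 1 at least 2-fold lower became 3 with local background, 3 with an offset of 16 and 45 in that table. At 1.5-fold, the 7 higher became 27 with local background, 4 without background correction, 30 with an offset of 16, 13 with spike control scaling and 118 in the authors' deposited table, and the 13 lower became 31 with local background, 45 with an offset of 16, 20 with quantile normalization over the 2 arrays alone and 124 in the authors' deposited table. The median of the miR-302 cluster moved by more than the SD of all differences with an offset of 16 (0.99) and in the authors' deposited table (1.34), and that of the miR-466, miR-467, miR-669 and miR-297 families in that table (-0.70). The planned filters on dim spots gave 0.55 to 0.61 and -0.31 to -0.22. With only miRNAs above the negative control limit on both arrays, a filter added after the data were seen that drops the dim arms, the medians were 0.97 and -0.38. A smaller offset widens the differences of dim miRNAs by construction. In the authors' deposited table missing values were set to the lowest of their array, so its counts include filled-in values. The cause of the wider differences in that table was not tested. With local background miR-2137 turned to -0.32 and miR-467d-3p to 0.49; the cause was not tested. Among the 7 miRNAs at least 1.5-fold higher, 6 kept their sign under all 8 other ways of processing, as did 12 of the 13 lower ones. These were picked for large differences, where a change of sign is least likely. Smaller differences of some other miRNAs did turn with local background. Examples are miR-412-3p (0.42 to -0.12), miR-369-5p (0.26 to -0.02) and the let-7 and miR-17 family members given above. Of 608 values of 76 named miRNAs under the 8 other ways of processing, 510 moved by less than 1 SD of all differences. Differences of spots close to the detection limit, let-7 and the 5p arms of miR-302 among them, are limited by the signal over background.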
